A study of Mus musculus with 9 samples.

Results

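The loci of 7 genes that encode transcription factors of naive pluripotency were followed by ATAC-Seq during reprogramming of mouse fibroblasts: Esrrb, Tfcp2l1, Klf2, Klf5, Tbx3, Nr5a2 and Prdm14. They are 7 of 22367 protein-coding genes of the annotation, chosen by name with earlier results of these data known. A locus ran from 20 kb upstream of the transcription start site (TSS) to 20 kb past the end of the gene, and a promoter element overlapped the 3 kb before any TSS. Overlapping peaks of a library were merged into regions, and regions of any library that shared at least 1 bp were joined into an element. In mm9 (GENCODE vM1) the genes lie at chr12:87702067-87862578 (Esrrb, + strand), chr1:120524522-120581744 (Tfcp2l1, +), chr8:74842932-74845555 (Klf2, +) and chr14:99697910-99712624 (Klf5, +). Tbx3 lies at chr5:120120678-120134733 (+), Nr5a2 at chr1:138740161-138857004 (-) and Prdm14 at chr1:13103538-13117244 (-). Elements are named by the distance of their highest summit from the outermost TSS, with + along transcription. The loci held 114 of the 210151 elements of the series. A level is the highest pileup of tags at a summit of the element per 1000000 total tags of that library (CPM).

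Naive pluripotency is the state of the pre-implantation epiblast and of mouse embryonic stem cells kept with LIF, and it is held by a network of transcription factors beside Oct4, Sox2 and Nanog. Esrrb and Nr5a2 are orphan nuclear receptors, of which Nr5a2 can take the place of Oct4 in the reprogramming cocktail. Tfcp2l1, a CP2-family factor, and the zinc-finger factors Klf2 and Klf5 of the Krüppel-like family lie, between them, downstream of LIF and of MEK and GSK3 inhibition. Tbx3 is a T-box factor, and Prdm14 is a PR-domain factor that represses Fgf signalling and DNA methyltransferase genes. ATAC-Seq reads where a transposase can cut the DNA, so a region marks open chromatin and not transcription.

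Each condition had 1 library. D0 was mouse embryonic fibroblasts (MEFs) with a GFP reporter at the Oct4 gene, from which all the other cells were made. D3 was taken 3 days after infection with pMXs retroviruses for Oct4, Sox2, Klf4 and c-Myc (OSKM). D6T- and D9T- were Thy-1-negative cells of days 6 and 9, and D12S+ and D16S+ were SSEA-1-positive cells of days 12 and 16. The iPSCs were fully reprogrammed cells, and D0, D3 and iPSCs were not sorted. The labels place reprogramming cells and iPSCs in a feeder-free medium, made for reprogramming with LIF, bFGF, ascorbic acid and CHIR99021, a GSK3 inhibitor. The study's methods also name serum and serum-replacement media with LIF and without those additions, so the medium of a given library is not settled. D6 siH3.3 and D6 siNT were OSKM-infected cells of day 6 that had received siRNA against the histone variant H3.3, or a non-targeting siRNA, before infection. The labels give both as Thy-1-negative, while the sample list of the study leaves their sorting open. Stage, sorting and library cannot be told apart in this design, nor can fewer cells with an open site from less opening per cell. No test was possible between conditions with 1 library each, and the 95% intervals given cover counting error only. They treat a pileup as a count of tags and do not cover the choice of the highest summit.

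The number of tags was lowest in D9T- (13213117) and highest in D0 (31714845), and the weakest level called lay between 0.331 (D3) and 0.530 CPM (D9T-). Below that level an opening was not detectable. Signal at regions also differed between libraries: the median level of 9293 promoter elements called in all 9 libraries was 0.914 CPM in D0, 2.15 in D3, 3.65 in D6T-, 1.44 in D9T-, 2.33 in D12S+, 2.22 in D16S+ and 1.17 in iPSCs, with 1.34 in D6 siH3.3 and 1.29 in D6 siNT. On the log2 scale this was a shift of 0.35 for iPSCs over D0, 1.23 for D3 over D0, -0.65 for D12S+ over D6T- and 0.06 for D6 siH3.3 over D6 siNT. Of 6 pluripotent marker promoters (Nanog, Zfp42, Dppa5a, Utf1, Fgf4, Tdgf1), 0 had a region in D0 and D9T-, 2 in D3, 1 in D6T- and all 6 in D12S+, D16S+ and iPSCs. The Thy1 promoter had no region in the 4 libraries labelled Thy-1-negative and had one in the other 5. Its levels where called were low, from 0.410 (D0) to 0.625 CPM (D12S+). The lowest level called was 0.530 CPM in D9T-, 0.429 in D6 siH3.3 and 0.413 in D6 siNT, so its absence there is near the limit of detection.

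The sequences that carry the main pattern were read from mm9 as windows of 300 bp, centred on the highest summit and written along the gene's strand. Capitals mark matches on either strand to any of 7 motifs: POU octamer ATGCAAAT, SOX CATTGT, orphan receptor CAAGGTCA, KLF GGGNGTGG, AP-1 TGANTCA, STAT TTCCNGGAA and TEAD GGAATG. The first 6 windows were among the strongest elements of late libraries at their gene.
Esrrb +140.9 kb (chr12:87842804-87843103, + strand, open in D12S+, D16S+ and iPSCs; orphan receptor match): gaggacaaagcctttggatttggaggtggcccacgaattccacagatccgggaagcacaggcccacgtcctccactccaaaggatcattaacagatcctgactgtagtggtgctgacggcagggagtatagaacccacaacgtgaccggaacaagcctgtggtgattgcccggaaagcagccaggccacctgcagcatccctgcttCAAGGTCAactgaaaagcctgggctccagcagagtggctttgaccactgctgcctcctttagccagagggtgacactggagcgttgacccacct
Esrrb +110.0 kb (chr12:87811932-87812231, + strand, the same 3 libraries; POU octamer match on the other strand): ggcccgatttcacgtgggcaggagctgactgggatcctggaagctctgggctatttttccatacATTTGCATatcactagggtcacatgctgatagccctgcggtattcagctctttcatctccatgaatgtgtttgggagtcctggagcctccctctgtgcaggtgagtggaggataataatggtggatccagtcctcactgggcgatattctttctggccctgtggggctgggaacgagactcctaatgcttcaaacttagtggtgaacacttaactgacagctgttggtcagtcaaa
Tfcp2l1 +20.3 kb (chr1:120544636-120544935, + strand, open from D6T- on; KLF match on the other strand): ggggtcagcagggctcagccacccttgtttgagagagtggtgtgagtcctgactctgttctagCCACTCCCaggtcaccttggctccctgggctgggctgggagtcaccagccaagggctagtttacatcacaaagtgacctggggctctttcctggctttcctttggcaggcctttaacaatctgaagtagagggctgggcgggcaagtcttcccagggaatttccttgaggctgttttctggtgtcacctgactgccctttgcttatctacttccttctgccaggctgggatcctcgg
Klf2 -2.7 kb (chr8:74840050-74840349, + strand, open in D6T-, D12S+, D16S+ and iPSCs; no match): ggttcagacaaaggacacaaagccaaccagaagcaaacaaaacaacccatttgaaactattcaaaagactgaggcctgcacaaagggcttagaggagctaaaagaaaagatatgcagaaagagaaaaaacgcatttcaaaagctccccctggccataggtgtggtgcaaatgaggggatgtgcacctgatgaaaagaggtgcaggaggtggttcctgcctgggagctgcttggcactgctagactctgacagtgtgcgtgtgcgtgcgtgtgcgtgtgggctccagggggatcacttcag
Nr5a2 +6.7 kb (chr1:138850148-138850447, - strand, at the downstream TSS, open in D16S+ and iPSCs; KLF and TEAD matches): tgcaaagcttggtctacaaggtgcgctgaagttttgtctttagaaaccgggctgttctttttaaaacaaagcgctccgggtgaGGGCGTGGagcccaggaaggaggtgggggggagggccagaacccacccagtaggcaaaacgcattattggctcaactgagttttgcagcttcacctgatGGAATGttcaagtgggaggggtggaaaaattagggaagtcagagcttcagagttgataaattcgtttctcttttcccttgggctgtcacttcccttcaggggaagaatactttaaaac
Prdm14 +32.4 kb (chr1:13084652-13084951, - strand, open in D12S+ and D16S+; a TEAD match on the other strand overlaps a STAT match): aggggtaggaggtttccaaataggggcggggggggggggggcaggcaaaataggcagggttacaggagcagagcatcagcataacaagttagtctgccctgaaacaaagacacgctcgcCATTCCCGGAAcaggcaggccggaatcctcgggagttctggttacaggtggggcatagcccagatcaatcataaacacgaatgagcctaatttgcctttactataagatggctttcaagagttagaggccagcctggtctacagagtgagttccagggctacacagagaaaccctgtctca

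The other pair of windows was open in D0, D3 and D6T- and in no later library, and is shown for the AP-1 matches.
Esrrb +37.8 kb (chr12:87739734-87740033, + strand; 2 AP-1 matches and a KLF match on the other strand): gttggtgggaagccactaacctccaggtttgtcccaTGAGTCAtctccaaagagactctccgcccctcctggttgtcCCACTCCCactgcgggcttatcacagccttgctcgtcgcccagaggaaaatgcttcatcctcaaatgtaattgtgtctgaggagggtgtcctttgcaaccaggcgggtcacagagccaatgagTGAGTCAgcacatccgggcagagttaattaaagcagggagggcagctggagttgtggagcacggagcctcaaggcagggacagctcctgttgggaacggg
Prdm14 +7.0 kb (chr1:13110078-13110377, - strand; a TEAD match overlaps an AP-1 match): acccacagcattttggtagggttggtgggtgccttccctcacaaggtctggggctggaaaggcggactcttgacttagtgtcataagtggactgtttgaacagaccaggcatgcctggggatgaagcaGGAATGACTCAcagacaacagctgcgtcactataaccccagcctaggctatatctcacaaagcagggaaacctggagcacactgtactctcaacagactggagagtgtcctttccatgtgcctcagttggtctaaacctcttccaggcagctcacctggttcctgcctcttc

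Promoters of 4 of the 7 genes were open in every library, fibroblasts included. A promoter region was called at Tfcp2l1, Klf2, Klf5 and Tbx3 in all 9 libraries, whereas those of Esrrb, Nr5a2 and Prdm14 came and went. The share of all protein-coding genes open in all 9 was not computed. As 9293 promoter elements were called in all 9 libraries, this is not read as particular to these genes. In all, 5 of 7 genes had a promoter region in D0 and 5 in D3, against 58.0% and 67.8% of all protein-coding genes. There were 6 in D6T- (68.3% of all genes), 4 in D9T- (50.4%), 5 in D12S+ (63.0%), 6 in D16S+ (63.0%) and 6 in iPSCs (63.9%). D6 siH3.3 had 4 (54.2%) and D6 siNT had 5 (54.8%). Each count lay within 2 genes of the number that the background share of its library gives, and nothing is read from it. Read per 300 bp around the outermost TSS (250 bp before to 50 bp after), the 4 promoters called in all 9 libraries held 21 (Tfcp2l1), 33 (Klf2), 25 (Klf5) and 29 CpGs (Tbx3). The median over 22362 protein-coding genes was 11.0. Prdm14 held 10 and the TSSs of Nr5a2 2 and 7. The 5 TSSs of Esrrb ranged from 2 to 37 CpGs, with 37 at an internal TSS covered by the +60.6 kb element, above the count at each of those 4 promoters.

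**Figure D1:**
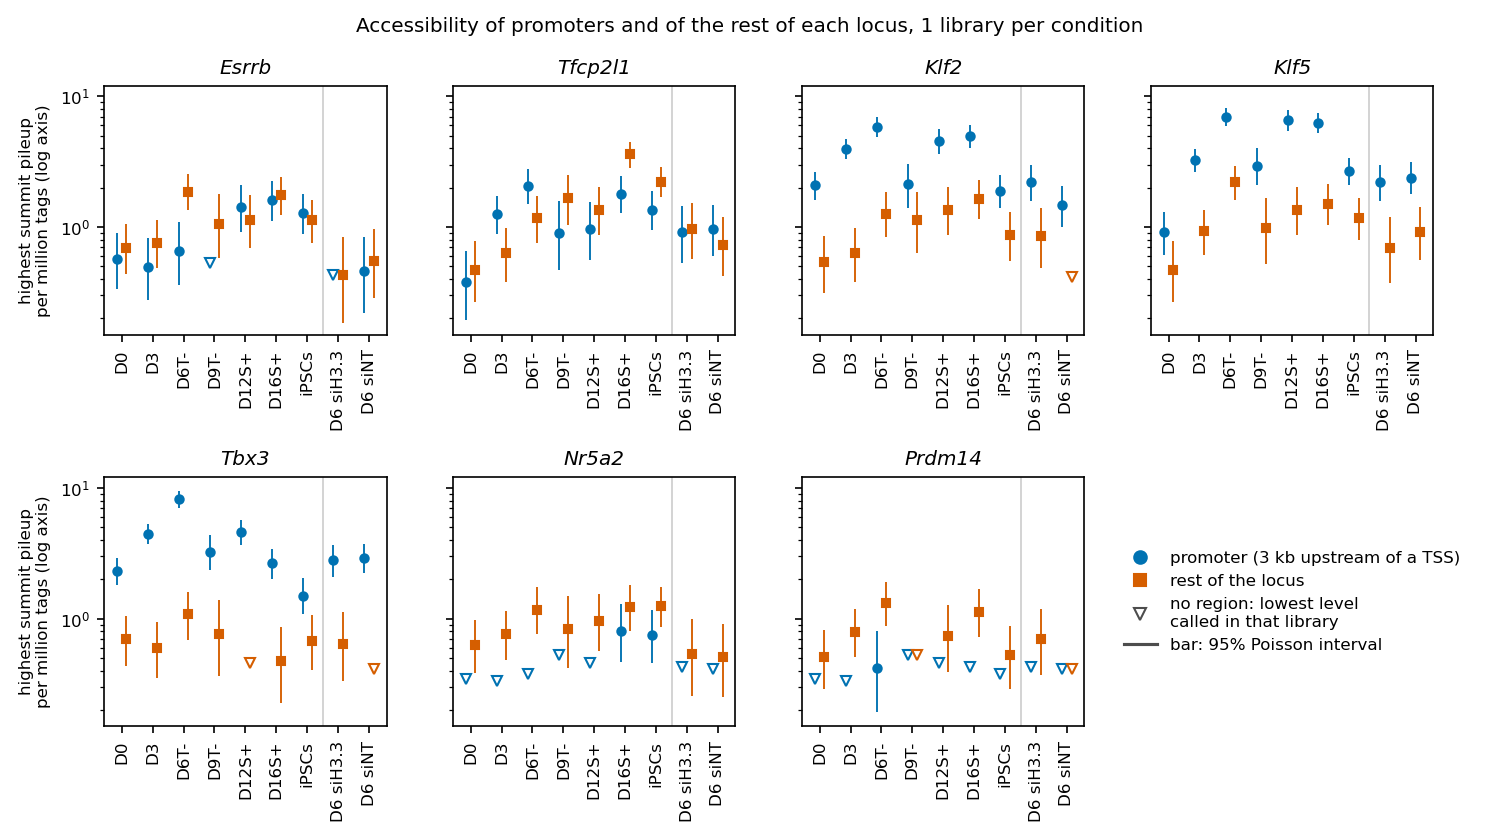
Highest summit pileup in CPM (log axis) in each of the 9 libraries for the promoter (circles) and for the rest of the locus (squares) of the 7 genes, with 95% Poisson intervals; open triangles stand at the lowest level called where there was no region. Promoters of Tfcp2l1, Klf2, Klf5 and Tbx3 have a region in all 9 libraries, and that of Nr5a2 has one in D16S+ and iPSCs alone.

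Klf5, a factor of naive cells and of gut and trophectoderm epithelium, had a promoter that was weakest in fibroblasts. Its level was 0.914 CPM in D0 (29 tags), 3.27 in D3, 6.97 in D6T-, 2.95 in D9T-, 6.59 in D12S+, 6.28 in D16S+ and 2.67 in iPSCs. D0 was the lowest of the 9 libraries, below D6 siH3.3 (2.20 CPM) by more than the counting error (2.40-fold, 95% interval 1.46 to 4.01). D6T-, D12S+ and D16S+ formed the top of the order and did not differ from each other beyond counting error, while D16S+ exceeded D3, the next, 1.92-fold (1.47 to 2.51). The iPSCs were 2.92-fold above D0 (1.87 to 4.67) and D3 was 3.58-fold above it (2.35 to 5.62). Relative to the median shared promoter of each library, the Klf5 promoter stood at 1.00 in D0, 1.52 in D3, 1.91 in D6T-, 2.05 in D9T-, 2.83 in D12S+ and in D16S+ and 2.29 in iPSCs.

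The Tbx3 promoter took the other course. It measured 2.30 CPM in D0, 4.47 in D3, 8.23 in D6T-, 3.25 in D9T-, 4.60 in D12S+, 2.64 in D16S+ and 1.5 in iPSCs. D6T- was the highest, 1.79-fold above D12S+ (1.37 to 2.36), and iPSCs were the lowest, with D0 1.53-fold above them (1.03 to 2.31). Relative to the shared promoters it lay between 1.98 and 2.52 up to D12S+ and at 1.19 in D16S+ and 1.29 in iPSCs. The element also covers the promoter of the neighbouring annotated gene Gm2301, so the signal cannot be given to Tbx3 alone.

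Klf2, whose protein ERK signalling destabilises in mouse embryonic stem cells, had a promoter level of 2.08 CPM in D0, 3.97 in D3, 5.84 in D6T-, 2.12 in D9T-, 4.54 in D12S+, 4.96 in D16S+ and 1.88 in iPSCs. The order split in 2: D6T-, D16S+, D12S+ and D3 were above the rest, and D3 exceeded the next library, D6 siH3.3, 1.81-fold (1.26 to 2.64). Start and end did not differ beyond counting error (iPSCs over D0 0.904-fold, 0.613 to 1.33). Relative to the shared promoters Klf2 ranged from 1.47 (D9T-) to 2.28 (D0) in the time course.

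The Tfcp2l1 promoter measured 0.378 CPM in D0 (12 tags), 1.26 in D3, 2.06 in D6T-, 0.908 in D9T-, 0.965 in D12S+, 1.79 in D16S+ and 1.35 in iPSCs. D0 was the lowest library, and iPSCs were 3.58-fold above it (1.82 to 7.56). No neighbours in the order of the 9 libraries differed beyond counting error. Relative to the shared promoters Tfcp2l1 stood at 0.414 in D0, 0.585 in D3, 0.564 in D6T-, 0.632 in D9T-, 0.415 in D12S+, 0.809 in D16S+ and 1.16 in iPSCs. On this scale D0 and D12S+ were nearly equal.

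The 3 remaining promoters were weak. Esrrb has 5 annotated TSSs, and a promoter region at any of them measured 0.568 CPM in D0, 0.496 in D3, 0.654 in D6T-, 1.42 in D12S+, 1.61 in D16S+ and 1.28 in iPSCs, with none in D9T- and D6 siH3.3 and 0.459 CPM in D6 siNT. The D12S+, D16S+ and iPSC levels did not differ beyond counting error, and iPSCs stood 1.95-fold above D6T- (1.02 to 3.94). The element behind those 3 levels, at +140.9 kb, was not the one behind the levels in D0 (+142.5 kb) or in D3 and D6T- (+60.6 kb). The late level also rests on the 3 kb window: with a narrower one (from 1 kb before the TSS to 100 bp past it) the log2 difference of D12S+ over D6T- went from 1.12 to -0.07 and that of iPSCs over D0 from 1.17 to 0.61. Nr5a2 had a promoter region in D16S+ (0.803 CPM, 17 tags) and iPSCs (0.752 CPM, 20 tags) alone, at the downstream of its 2 TSSs. The Prdm14 promoter had a single region of 9 tags in D6T- (0.421 CPM), close to the lowest level called there (0.374 CPM), and none in the other 8 libraries.

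Of the 114 elements, 96 did not overlap a promoter of their gene. Elements called at the loci numbered 35 in D0, 45 in D3, 43 in D6T-, 11 in D9T-, 28 in D12S+, 32 in D16S+ and 56 in iPSCs, with 13 in D6 siH3.3 and 15 in D6 siNT. Regions over the whole genome numbered 81364 in D0, 107765 in D3, 133132 in D6T-, 36708 in D9T-, 57533 in D12S+, 50890 in D16S+ and 61615 in iPSCs, and 47348 and 46481 in the siRNA pair. With the 36708 strongest regions of each library, the loci had 49 elements, of which 7 were called in D0, 9 in D3, 6 in D6T-, 11 in D9T-, 20 in D12S+, 24 in D16S+ and 37 in iPSCs. The order of the libraries thus turned, with D0, D3 and D6T- below the later libraries, and iPSCs had the most either way. In all, 59 elements were called in 1 library only and 5 in all 9. Esrrb had 46 elements over 201 kb, Tfcp2l1 15 over 97.2 kb, Tbx3 13 over 54.1 kb, Klf2 12 over 42.6 kb and Klf5 10 over 54.7 kb. Nr5a2 and Prdm14 had 9 each, over 157 and 53.7 kb.

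Elements were then grouped by stage, with groups defined after the values were seen. Late-only elements were called in at least 2 of D12S+, D16S+ and iPSCs and in none of D0, D3, D6T- and D9T-. They were 16 of 114 at these loci (14.0%) and 4.25% of all elements called in the time course. Early-only elements were called in at least 2 of D0, D3 and D6T- and in none of D12S+, D16S+ and iPSCs. They were also 16 of 114 (14.0%), against 19% of all elements. With 36708 regions in every library they fell to 0 of 49 (12.5% of all elements), while late-only elements were 16 of 49 (10.7%). Each early-only element was thus among the strongest 36708 regions of at most 1 of D0, D3 and D6T-. Elements called in all 7 libraries of the time course were 6 (5.26%, against 6.39%). Of the late-only elements 7 were at Esrrb (of its 46 elements), 3 at Prdm14 (of 9) and 2 at Tfcp2l1 (of 15). Klf5 had 2 (of 10), Klf2 had 1 (of 12), Nr5a2 had 1 (of 9) and Tbx3 had 0 (of 13). Levels of the late-only elements where called ran from 0.568 to 1.42 CPM in D12S+ (10 elements). They ran from 0.472 to 1.75 in D16S+ (14 elements) and from 0.451 to 1.28 in iPSCs (15 elements). None of the 16 had a region in D6 siH3.3 or D6 siNT, libraries with few regions at these loci.

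**Figure D2:**
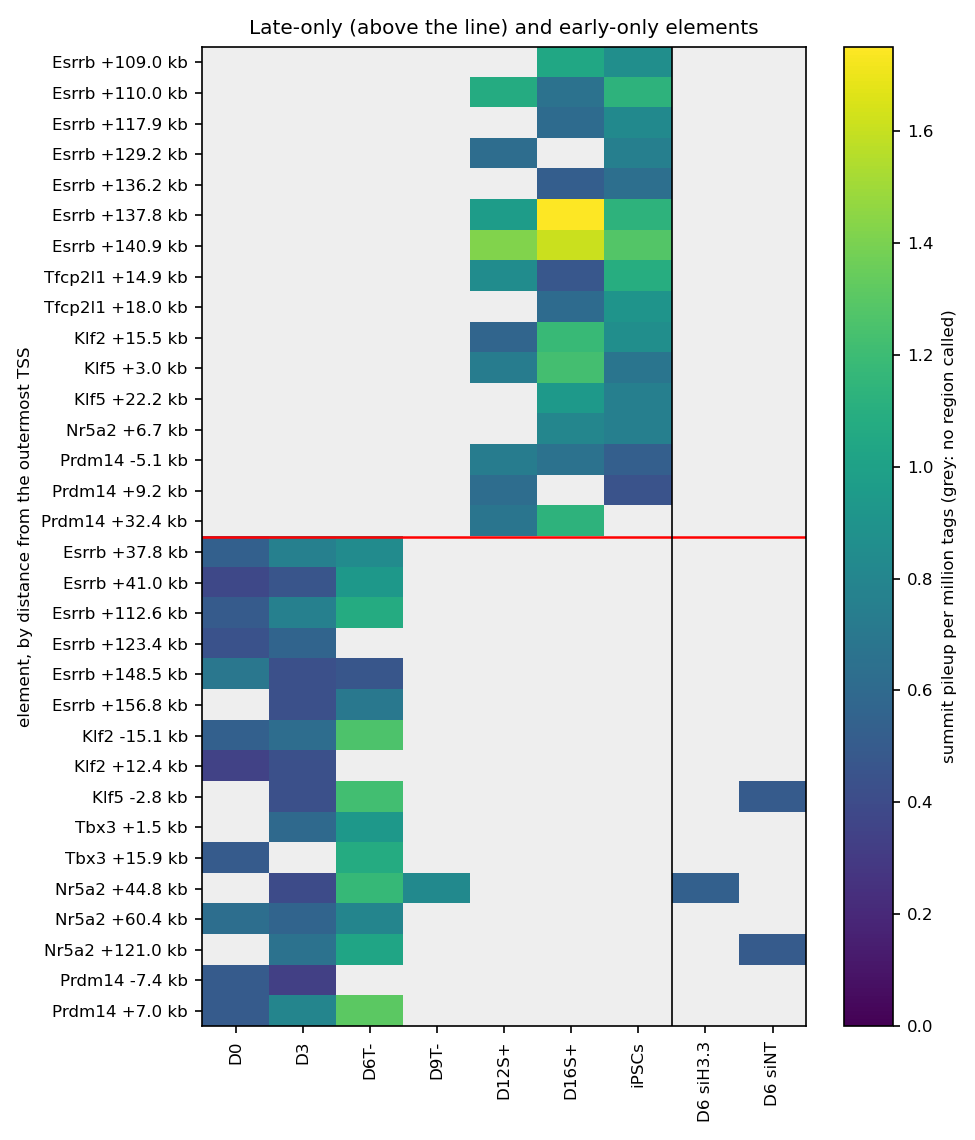
Summit pileup in CPM (colour; grey where no region was called) of the 16 late-only elements (above the red line) and 16 early-only elements (below it) in the 9 libraries, named by distance from the outermost TSS. Esrrb holds 7 of the late-only elements among its 46 elements, Prdm14 holds 3 among its 9, and Tbx3 holds none.

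The Esrrb locus held both groups, as did the loci of Klf2, Klf5, Nr5a2 and Prdm14. At Esrrb the early-only elements lay in the gene body, at +37.8, +41.0, +112.6, +123.4, +148.5 and +156.8 kb of its outermost TSS. The late-only elements all lay in the 3′ part of the gene, between +109.0 and +140.9 kb. The strongest, +140.9 kb, is intronic and lies 2.40 kb upstream of the last TSS. It had 25 tags in D12S+ (1.42 CPM), 34 in D16S+ (1.61 CPM) and 34 in iPSCs (1.28 CPM) and no region in the other 6 libraries. In iPSCs it was at least 3.69-fold above D0, and in D12S+ at least 3.80-fold above D6T-. The intronic +137.8 kb element had 17, 37 and 30 tags in the same 3 libraries (0.965, 1.75 and 1.13 CPM), and the +110.0 kb element had 19, 14 and 30 (1.08, 0.661 and 1.13 CPM). Between them, the early-only element at +112.6 kb had 16 tags in D0 (0.504 CPM), 23 in D3 (0.761 CPM) and 23 in D6T- (1.08 CPM) and then no region. The highest Esrrb level of all was at the intronic +72.3 kb element: 0.473 CPM in D0, 0.628 in D3, 1.87 in D6T-, 1.06 in D9T-, 1.14 in D12S+, 0.756 in D16S+ and 0.978 in iPSCs. It was the single Esrrb element called in D9T-.

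**Figure D3:**
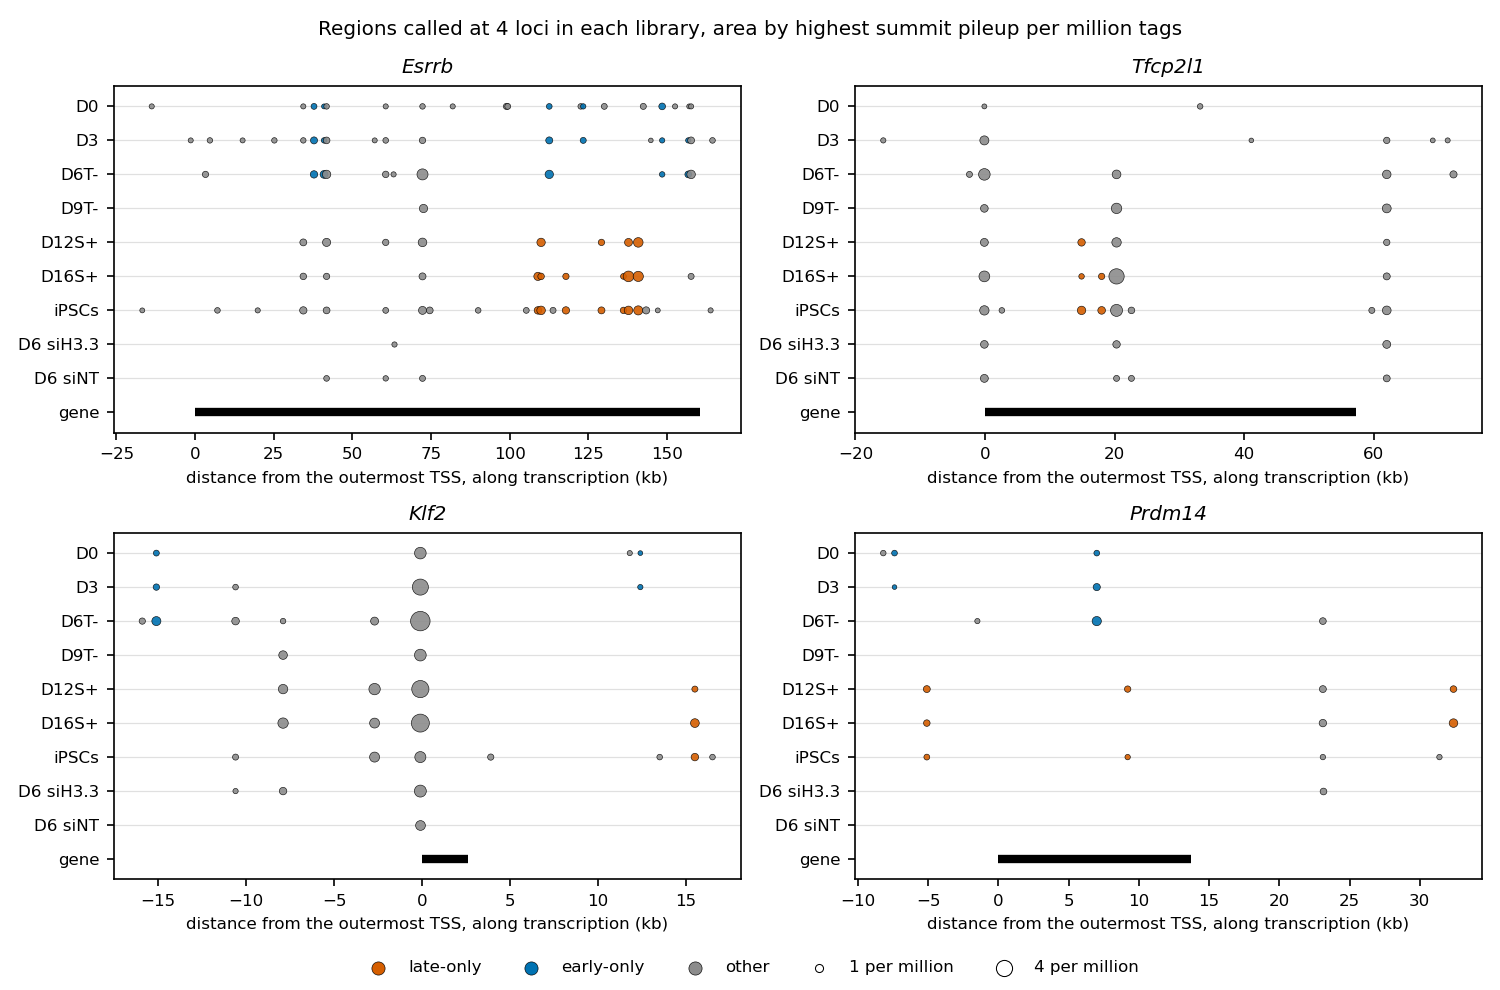
Regions at Esrrb, Tfcp2l1, Klf2 and Prdm14 by distance from the outermost TSS (kb) in each of the 9 libraries, with the area of a point by summit pileup in CPM, late-only elements in orange and early-only elements in blue; the black bar is the gene. At Esrrb the late-only elements lie between +109.0 and +140.9 kb, next to the early-only element at +112.6 kb.

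The strongest Tfcp2l1 element lay in an intron at +20.3 kb. It had no region in D0 and D3, 25 tags in D6T- (1.17 CPM), 22 in D9T- (1.67 CPM), 24 in D12S+ (1.36 CPM), 76 in D16S+ (3.59 CPM) and 59 in iPSCs (2.22 CPM). iPSCs were at least 6.40-fold above D0, the highest bound among the 81 elements called in either. The element was thus open in both Thy-1-negative libraries, before the SSEA-1 stage, and again in D6 siH3.3 (0.857 CPM) and D6 siNT (0.551 CPM). Its late-only neighbours at +14.9 and +18.0 kb measured 1.09 and 0.903 CPM in iPSCs. A further element at +62.0 kb, past the end of the gene, was called in every library but D0.

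Klf2 had a pair of upstream elements with different ends. The -2.7 kb element, within the promoter window but apart from the TSS, had 21 tags in D6T- (0.982 CPM), 35 in D12S+ (1.99 CPM), 32 in D16S+ (1.51 CPM) and 41 in iPSCs (1.54 CPM), and no region in D0, D3, D9T- and the siRNA libraries. iPSCs were at least 4.45-fold above D0. The -7.9 kb element had 10 tags in D6T- (0.467 CPM), 15 in D9T- (1.14 CPM), 24 in D12S+ (1.36 CPM) and 35 in D16S+ (1.65 CPM) and no region in iPSCs. Both were higher in D12S+ than D6T-, the -7.9 kb element 2.91-fold. The late-only +15.5 kb element, downstream of the gene, measured 0.568, 1.18 and 0.865 CPM in D12S+, D16S+ and iPSCs.

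At Klf5 the +26.1 kb element, downstream of the gene, was open in all 9 libraries, at 0.473 CPM in D0, 2.20 in D6T- and 1.17 in iPSCs. The late-only elements at +3.0 kb (an exon) and +22.2 kb reached 1.23 and 0.945 CPM in D16S+. Tbx3 had no late-only element, and its early-only elements at +1.5 and +15.9 kb measured 0.935 and 1.08 CPM in D6T-.

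Nr5a2 had the fewest elements for its length (5.74 per 100 kb), and its iPSC regions gathered around the downstream TSS. The +7.4 kb element had 14 tags in D6T- (0.654 CPM), 13 in D12S+ (0.738 CPM), 12 in D16S+ (0.567 CPM) and 33 in iPSCs (1.24 CPM), at least 3.58-fold above D0. The intronic +10.8 kb element was called in every library but D9T-, at 0.441 CPM in D0 and 0.978 in iPSCs. Farther along, the early-only elements at +44.8, +60.4 and +121.0 kb had no region in D12S+, D16S+ and iPSCs.

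Prdm14, without a promoter region late in reprogramming, still had late-only elements on both sides of the TSS. The -5.1 kb element had 13, 14 and 14 tags in D12S+, D16S+ and iPSCs (0.738, 0.661 and 0.527 CPM). The +32.4 kb element, downstream of the gene, had 12 tags in D12S+ (0.681 CPM) and 24 in D16S+ (1.13 CPM) and no region in iPSCs. The intronic +9.2 kb element, also late-only, had 11 tags in D12S+ (0.625 CPM) and 12 in iPSCs (0.451 CPM) and no region in D16S+. The intronic +7.0 kb element was the strongest of the locus: 16 tags in D0 (0.504 CPM), 24 in D3 (0.794 CPM) and 28 in D6T- (1.31 CPM), and no region in the other 6 libraries. Prdm14 had no region at all in D9T- and D6 siNT.

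The motif counts were set beside those of the same class over the genome. An AP-1 match was in 7 of the 16 early-only windows (43.8%) and in 0 of the 16 late-only windows, with 50.6% and 7.70% of all early-only and late-only elements of the genome and 28.1% of all elements. The AP-1 counts of these loci thus follow those of their classes. A KLF match was in 6 of the late-only windows (37.5%) and 3 of the early-only ones (18.8%), beside 19.3% and 10.7% of all late-only and early-only elements and 13.9% of all elements. The POU octamer was in 2 late-only windows (12.5%), both at Esrrb (+110.0 and +117.9 kb), beside 5.46% of all late-only and 2.29% of all elements. The orphan receptor match was in 1 (6.25%), close to the 5.17% of all late-only elements, and the STAT match in 1 (1.17% of the class). TEAD matches were in 5 late-only and 2 early-only windows, beside 22.6% and 27.1% of the classes, and SOX matches in 0 and 2, beside 17.4% and 19.9%. With 16 windows in a class, no difference is read from these counts. A match is a description of the sequence and no evidence that a factor bound there.

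iPSCs compared with D0 asked which elements differ between the end and the start. Of 81 elements called in either, 23 were at least 2-fold higher in iPSCs (28.4%) and 0 were at least 2-fold lower. Of all elements of the series, 9.72% were higher and 10.5% lower. Of the 23, 10 were at Esrrb (of 36 called in either), 5 at Tfcp2l1 (of 9) and 3 at Klf5 (of 5). Nr5a2 had 3 (of 6) and Klf2 had 2 (of 10), and 7 of the 23 overlapped a promoter. Tbx3 and Prdm14 had 0 (of 8 and 7). In 17 of the 23 there was no region in D0, so the fold is a lower bound, and 6 were called in both. The 0 lower does not mean that none closed: of 35 elements called in D0, 10 were also called in iPSCs. The strongest of the others measured 0.694 CPM in D0. The lowest level called in iPSCs gave these a bound of 1.84-fold, short of 2-fold. The median log2 difference was 0.50 at these loci and -0.08 over all elements. The split depended on scaling: relative to shared promoters 11 elements were higher and 4 lower, beside 4.13% and 19.8% of all elements.

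**Figure D4:**
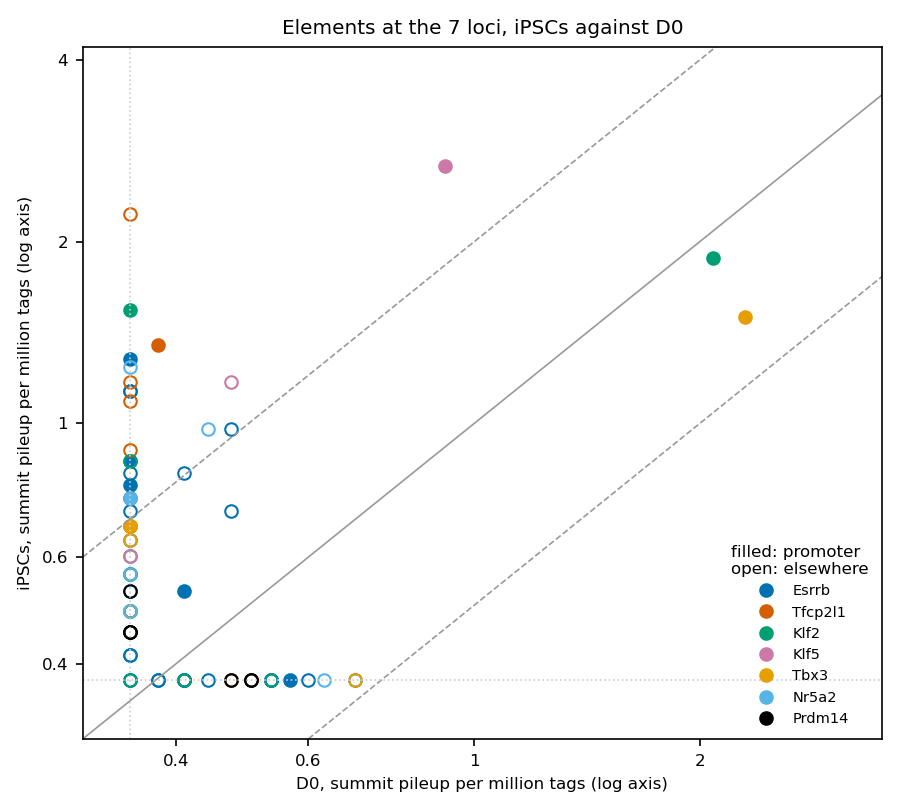
Summit pileup in CPM in iPSCs against D0 (both log axes) for the 81 elements called in either, coloured by gene, filled where the element overlaps a promoter; points on the dotted lines had no region and stand at the lowest level called, and dashed lines mark 2-fold. The 23 elements at or above the upper dashed line include 10 of the 36 at Esrrb and 5 of the 9 at Tfcp2l1, and no element lies below the lower one.

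D3 compared with D0 asked what the first days of OSKM changed. Of 59 elements, 2 were at least 2-fold higher in D3 (15.6% of all elements were) and 1 was lower (2.16% of all). The higher ones were the promoters of Klf5 and Tfcp2l1 (3.32-fold, 1.70 to 6.98), and the lower one lay at Tbx3 +23.6 kb (0.694 CPM in D0, no region in D3), at least 2.1-fold. The median log2 difference was 0.23, beside 0.31 over all elements. Relative to shared promoters, whose level was higher in D3, 0 were higher and 19 lower, beside 0.429% and 37.0% of all elements.

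D12S+ compared with D6T- crossed the change from Thy-1-negative to SSEA-1-positive cells. Of 54 elements, 6 were at least 2-fold higher in D12S+ (2.83% of all elements) and 11 were lower (29.2% of all). The higher ones were Esrrb +110.0, +137.8 and +140.9 kb, Tfcp2l1 +14.9 kb and Klf2 -7.9 and -2.7 kb. Every gene had at least 1 lower element, among them Prdm14 +7.0 kb (at least 2.88-fold) and Klf2 -15.1 kb (at least 2.78-fold). The median log2 difference was -0.29, beside -0.63 over all elements. Relative to shared promoters, whose level was lower in D12S+, 14 were higher and 0 lower, beside 8.96% and 9.44% of all elements.

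D6 siH3.3 compared with D6 siNT asked whether these loci differed at day 6 after siRNA against H3.3 given before infection. ATAC-Seq does not measure the knockdown itself. The paper describes that knockdown as transient and limited to early reprogramming, so H3.3 need not have been low at day 6. Of 20 elements called in either, 1 was at least 2-fold higher with siH3.3 (2.21% of all elements were) and 0 were lower (0.907% of all). The higher one was Klf2 -7.9 kb, with 16 tags in D6 siH3.3 (0.857 CPM), no region in D6 siNT and 10 tags in D6T- (0.467 CPM). Its bound was at least 2.07-fold. Elements called in both numbered 8, with intervals of the ratio that all spanned 1: the Klf5 promoter measured 2.20 CPM with siH3.3 and 2.39 with siNT (0.920-fold, 0.596 to 1.41), and the Tbx3 promoter 2.79 and 2.89 (0.963-fold, 0.654 to 1.41). The Klf2 promoter measured 2.20 and 1.47 CPM (1.49-fold, 0.919 to 2.45), and the Tfcp2l1 promoter 0.911 and 0.964 CPM (0.945-fold, 0.468 to 1.88). The intronic Tfcp2l1 +20.3 kb element was 1.56-fold higher with siH3.3, with an upper limit of 3.60. A further 5 elements were called in D6 siH3.3 alone and 7 in D6 siNT alone, and 19 of the 20 were also called in D6T-. Differences inside these intervals were not detectable at this depth. Of the pluripotent marker promoters, 0 had a region in either siRNA library.

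**Figure D5:**
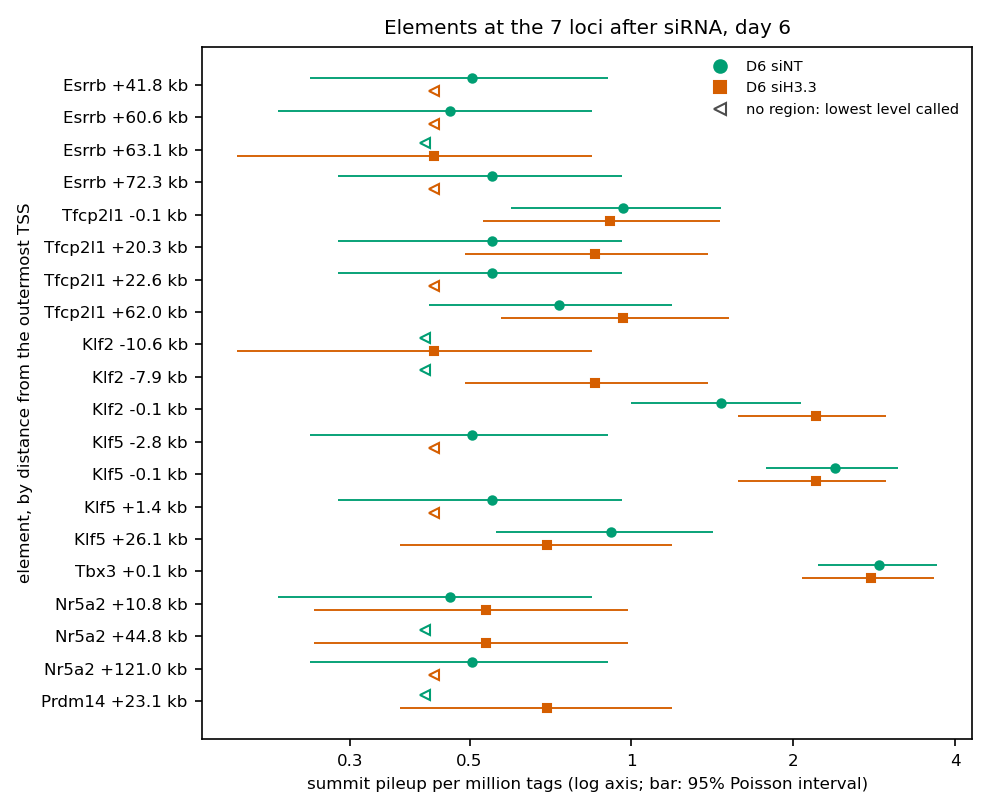
Summit pileup in CPM (log axis) with 95% Poisson intervals in D6 siNT (circles) and D6 siH3.3 (squares) for the 20 elements called in either, with open triangles at the lowest level called where there was no region. The intervals of the 8 elements called in both overlap, and Klf2 -7.9 kb is called in D6 siH3.3 alone at 0.857 CPM.

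Other genes of the naive network were read by the same promoter rule. They include all 6 pluripotent marker genes counted above, so the lists are not separate. Of 18 (Nanog, Zfp42, Dppa3, Dppa5a, Gbx2, Sall4, Tcl1, Fgf4, Fbxo15, Utf1, Tdgf1, Tet2, Stat3, Lifr, Nr0b1, Klf4, Pou5f1 and Sox2), 6 had a promoter region in D0, 9 in D3, 10 in D6T-, 9 in D9T-, 15 in D12S+, 17 in D16S+ and all 18 in iPSCs. D6 siH3.3 had 8 and D6 siNT had 7. The promoters called in D12S+ but not in D6T- were those of Nanog, Zfp42, Dppa5a, Fgf4 and Tdgf1, all in both lists. Of all protein-coding genes, 58.0% had a promoter region in D0, 67.8% in D3, 68.3% in D6T- and 50.4% in D9T-. The shares were 63.0% in D12S+, 63.0% in D16S+ and 63.9% in iPSCs, with 54.2% in D6 siH3.3 and 54.8% in D6 siNT. Between iPSCs and D0, the highest promoter level was at least 2-fold higher in iPSCs at 10 of the 18, and lower at 0. By the same measure Esrrb (2.25-fold), Tfcp2l1 (3.58-fold), Klf5 (2.92-fold) and Nr5a2 (at least 2.17-fold) were higher among the 7 genes. For Esrrb this set different elements against each other. Its log2 difference of 1.17 was 0.61 with the narrower promoter window and 0.82 relative to shared promoters, both short of 2-fold. Klf2 stood at 0.904-fold and Tbx3 at 0.654-fold, and Prdm14 had no promoter region in either library. The share of all genes was not computed for this measure. Of all elements, 9.72% were higher. Gbx2, a homeobox factor of naive cells, had a promoter region in iPSCs alone, of 10 tags (0.376 CPM). This is the lowest level called there and lies below the lowest level called in D9T-, D12S+ and D16S+, so no order is read from it. Klf4, Pou5f1 and Sox2 were also supplied as cDNA.

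Promoter regions at markers of other cells were counted as well, and their part in these results was not tested. Of all protein-coding genes, 58.0% had a promoter region in D0, 67.8% in D3, 68.3% in D6T- and 50.4% in D9T-. This share was 63.0% in D12S+ and D16S+, 63.9% in iPSCs, 54.2% in D6 siH3.3 and 54.8% in D6 siNT. With so few markers in a list, no change is read from the counts. Of 8 fibroblast markers (Thy1, Col1a1, Col1a2, Twist1, Snai2, Prrx1, Fn1, Postn), 7 had a promoter region in D0, 8 in D3, 7 in D6T-, 5 in D9T-, 7 in D12S+, 7 in D16S+ and 5 in iPSCs, with summed levels in the time course from 4.21 (iPSCs) to 14.7 CPM (D6T-). Relative to shared promoters the order turned, from 5.62 in D0 to 3.53 in D9T-, with 4.04 in D6T- and 3.61 in iPSCs. Of 6 trophectoderm and extra-embryonic endoderm markers (Cdx2, Eomes, Elf5, Gata4, Gata6, Sox17), 4 had one in D0, 6 in D3, 5 in D6T-, 1 in D9T-, 3 in D12S+, 4 in D16S+ and 5 in iPSCs. Of 4 primed epiblast markers (Fgf5, Otx2, T, Pou3f1), 2 had one in D0, 2 in D3, 2 in D6T-, 1 in D9T-, 3 in D12S+, 3 in D16S+ and 2 in iPSCs. They were Fgf5 and Pou3f1 in D0 and Otx2 and Pou3f1 in iPSCs, with T at 0 regions in all 9 libraries. In D6 siH3.3 and D6 siNT, regions were called at 5 and 5 fibroblast, 1 and 2 extra-embryonic, and 2 and 2 primed markers.

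Over the 9 libraries, the highest level of each locus on the log2 scale followed that of some members more than others. Pearson's r was highest between Esrrb and Nr5a2 (0.95) and between Klf2 and Prdm14 (0.93) and lowest between Tfcp2l1 and Tbx3 (0.11). The most alike of 19685 protein-coding genes with a region in at least 3 libraries were Thoc5 for Esrrb (0.988), Olfr1394 for Tfcp2l1 (0.971), Prodh for Klf2 (0.989) and Mllt10 for Klf5 (0.991). They were Ercc4 for Tbx3 (0.993), 3110056O03Rik for Nr5a2 (0.966) and Sephs1 for Prdm14 (0.982). All points share the libraries and their signal, so r near 1 over 9 points is a description of shape alone.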

How the data were processed

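The authors mapped ATAC-Seq reads of 51 bp to mm9 with STAR, removed duplicates with Picard and called peaks in each library with MACS2 2.1.0.20151222 (no control, no local background, tags extended to 200 bp, q-value cutoff 0.05), per the file headers and the study's methods. Signal was deposited by the authors as pileup, how many extended tags cover a summit, with no scaling between libraries. Fold enrichment, a deposited ratio, sets a pileup against tags spread evenly over the genome, and significance is deposited as −log10 of the p-value and q-value. Here peaks were merged, joined over the 9 libraries on chromosomes 1 to 19, X and Y, and divided by the total tags in the header (CPM). Genes came from GENCODE vM1 (NCBIM37, the mm9 build), where Tfcp2l1 is named Tcfcp2l1 and was matched by its RefSeq synonym. An uncalled element was set to the lowest level called in its library, so its fold is a lower bound. Intervals are exact 95% Poisson intervals of a pileup and exact conditional intervals of a ratio of 2 pileups, and cover counting error only. Merging, joining and overlap look-up were also run on simulated peaks. Those were mostly stronger than the elements at these loci, so nothing is read from them about levels near the lowest called. Named elements were, per gene, those with the highest level, the highest promoter level or the largest fold in each of 4 comparisons, and others were chosen after their values were seen. Members and lists were chosen with earlier results of these data known. Calculations used Python 3.11.15, numpy 2.4.6, pandas 2.3.3, scipy 1.17.1 and matplotlib 3.10.9.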

Additional observations from a re-analysis of the deposited data

How the results depend on the processing

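The counts of late-only elements were stable: they ran from 11 (−log10 q of at least 5) to 22 (loci of 50 kb on each side) over 7 alternatives added after the data were seen, from the main 16. Early-only elements fell to 0 with the same number of regions (36708) in every library, to 8 at the stricter q and to 10 without D6T-, and elements in all time-course libraries to 3 under the first and second of these. Other results moved as follows. Scaled to shared promoters, elements higher and lower numbered 11 and 4 (iPSCs against D0), 0 and 19 (D3 against D0) and 14 and 0 (D12S+ against D6T-), and 0 were higher with siH3.3, as with the MACS2 fold enrichment. With the same number of regions, D0 had a promoter region at 3 genes, and elements called numbered 7 (D0), 9 (D3), 6 (D6T-), 37 (iPSCs) and 8 (D6 siNT). In the same setting 8 were higher in iPSCs than D0, 0 lower in D3, 0 higher and 1 lower in D12S+, and 0 higher with siH3.3. With a −log10 q of at least 5, elements called numbered 12 (D0), 19 (D3), 34 (iPSCs) and 6 (D6 siNT), 11 were higher in iPSCs, 0 lower in D3, 3 higher and 1 lower in D12S+, and 0 higher with siH3.3. Over elements called in both libraries, 6 of 10 were higher in iPSCs, 0 lower in D3, 2 higher and 1 lower in D12S+, and 0 higher with siH3.3. At a fold of 1.5 the counts higher and lower were 38 and 6 (iPSCs), 13 and 8 (D3) and 13 and 22 (D12S+), with 3 higher with siH3.3. Loci of 50 kb gave 2 lower in D3. The log2 level of D3 over D0 turned to -0.30 for Klf2 and -0.28 for Tbx3, promoter and locus alike, when scaled to shared promoters. The Esrrb promoter of 1 kb upstream to 100 bp downstream gave -0.07 for D12S+ over D6T-. The cause of these changes was not tested. No paired analysis was possible because each condition had 1 library. Openings below 0.331 to 0.530 CPM were not detectable.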
